A study of Mus musculus with 1024 samples.

Results

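The 10 genes described here belong to bone morphogenetic protein (BMP) signalling, and were followed across single wells from the mouse aorta. They are the ligands Bmp4, Bmp6 and Gdf6, the receptors Bmpr2, Acvrl1 and Eng, and the targets and feedback inhibitors Smad6, Smad7, Id1 and Id3. They were taken by name, 10 of the 24422 genes in the count table, with earlier results of these data known. Single cells came from the aortae of mice aged 3 months that carried floxed alleles of amotl2, the tamoxifen-inducible Cre under the Cdh5 promoter (labelled Cdh5-RREert) and the ROSA26-EYFP reporter. Amotl2 codes for a scaffold protein of endothelial junctions, and Cre driven by Cdh5 acts in endothelial cells (ECs). KO denotes amotl2 ec-/ec- mice and WT denotes amotl2 ec+/ec+ mice. After depletion of Cd45+ cells, wells received a Cd31+Cd45- cell (Endothelial) or a Cd31-Cd45- cell (DoubleNegative), and the sorted cells came from 2 preparations that pooled several mice each. The labels number the sorts 1 and 2, and these numbers are called preparations here. Of 1024 wells, 784 with at least 20000 gene counts and 500 genes were kept, 676 Endothelial and 108 DoubleNegative. The Endothelial wells were 235 WT and 302 KO in preparation 1 and 50 WT and 89 KO in preparation 2, and the DoubleNegative wells 42, 40, 12 and 14 in the same order.

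BMPs are secreted dimers that bring together type I and type II receptor kinases, which phosphorylate SMAD1, SMAD5 and SMAD9. These bind SMAD4 and raise transcription of the Id genes and of Smad6 and Smad7, whose products dampen the same signal. In ECs the type I receptor ALK1 (Acvrl1), the type II receptor BMPR2 and the co-receptor endoglin (Eng) form the best known branch, and loss of ENG or ACVRL1 underlies hereditary haemorrhagic telangiectasia in humans.

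Promoter sequence from RefSeq (build GRCm38.p6) was read for 6 of the 10 genes. The 250 bases before the RefSeq start of transcription are shown for Bmp4, the ligand with the highest level, and Eng, which held 2 SMAD elements. Each is written 5′ to 3′ on the strand of its gene, and capitals mark the SMAD element GTCTG or its reverse complement CAGAC. The windows are chr14:46390670-46390919 (minus strand) for Bmp4 and chr2:32646345-32646594 (plus strand) for Eng.
Bmp4: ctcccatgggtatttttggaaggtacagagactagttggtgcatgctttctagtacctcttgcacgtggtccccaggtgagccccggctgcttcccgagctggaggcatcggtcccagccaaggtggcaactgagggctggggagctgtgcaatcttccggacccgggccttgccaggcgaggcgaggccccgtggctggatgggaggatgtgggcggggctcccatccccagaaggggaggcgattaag
Eng: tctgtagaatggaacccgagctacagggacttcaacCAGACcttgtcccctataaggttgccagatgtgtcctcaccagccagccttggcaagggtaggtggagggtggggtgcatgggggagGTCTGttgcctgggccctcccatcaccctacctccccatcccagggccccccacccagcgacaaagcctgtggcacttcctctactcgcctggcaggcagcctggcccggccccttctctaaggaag

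The element GTCTG or CAGAC lay in the windows of Bmp6, Eng and Id3, and 42.2% of 32851 promoter windows of the same length hold it. Its first base lay 119 bases before the start of Bmp6, 214 and 127 before that of Eng, and 167 and 68 before that of Id3. The GC-rich element GGCGCC, its own reverse complement, was found in 1 of the 6 windows, that of Bmpr2, 105 bases before the start, against 9.59% of all windows. The 6 windows were 62.4 to 68.8% G or C, where the median over all windows was 52.4%. On the same build, per GENCODE M21, the ligand genes span chr14:46383520-46390669 (Bmp4), chr13:38345107-38500302 (Bmp6) and chr4:9844372-9862345 (Gdf6). The receptor genes span chr1:59763400-59879014 (Bmpr2), chr15:101128522-101145336 (Acvrl1) and chr2:32646595-32682669 (Eng). Of the targets, Smad6 spans chr9:63953076-64022059, Id1 chr2:152736251-152737410 and Id3 chr4:136143497-136145755. Windows were counted from the RefSeq start, and those of Bmp6, Bmpr2 and Id3 lie within the gene spans of GENCODE M21, which start further upstream. The motif matches are descriptions of the letters and were not measured as bound sites.

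The samples differed in ways that touch the results below. Counts summed over wells ranged from 8470943 to 94881185 for the 4 Endothelial groups and from 926398 to 9435015 for the 4 DoubleNegative groups. In preparation 1 the KO and WT wells were on separate plates, so genotype and plate cannot be told apart there, while both genotypes of preparation 2 shared a plate. All 10 endothelial markers were higher in every Endothelial sum than in every DoubleNegative sum, and their summed level was 14408 to 17022 CPM (counts scaled to a common library size) against 24.8 to 1233. The highest DoubleNegative value came from the WT wells of preparation 2, where 1 well held all Cdh5 counts. All 8 smooth muscle markers and 7 of 8 fibroblast markers were higher in every DoubleNegative sum. Leukocyte markers summed to 3.78 to 11.8 CPM in the Endothelial sums, with Cd3e and Lyz2 at 0, and erythroid markers were at 0. Amotl2 itself stood at 59.9 and 94.0 CPM in the WT Endothelial sums and at 51.9 and 45.7 CPM in the KO sums (log2 fold change −0.66, SE 0.32, edgeR adjusted p = 0.9995), and the counts do not show which exons the reads came from. EYFP, the reporter of recombination, stood at 2.38 and 0.35 CPM in WT and at 113 and 85.5 CPM in KO Endothelial sums, and had no count in 108 DoubleNegative wells, which allows a share of up to 2.78% of wells. Intervals and limits of this kind cover counting error only.

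**Figure D1:**
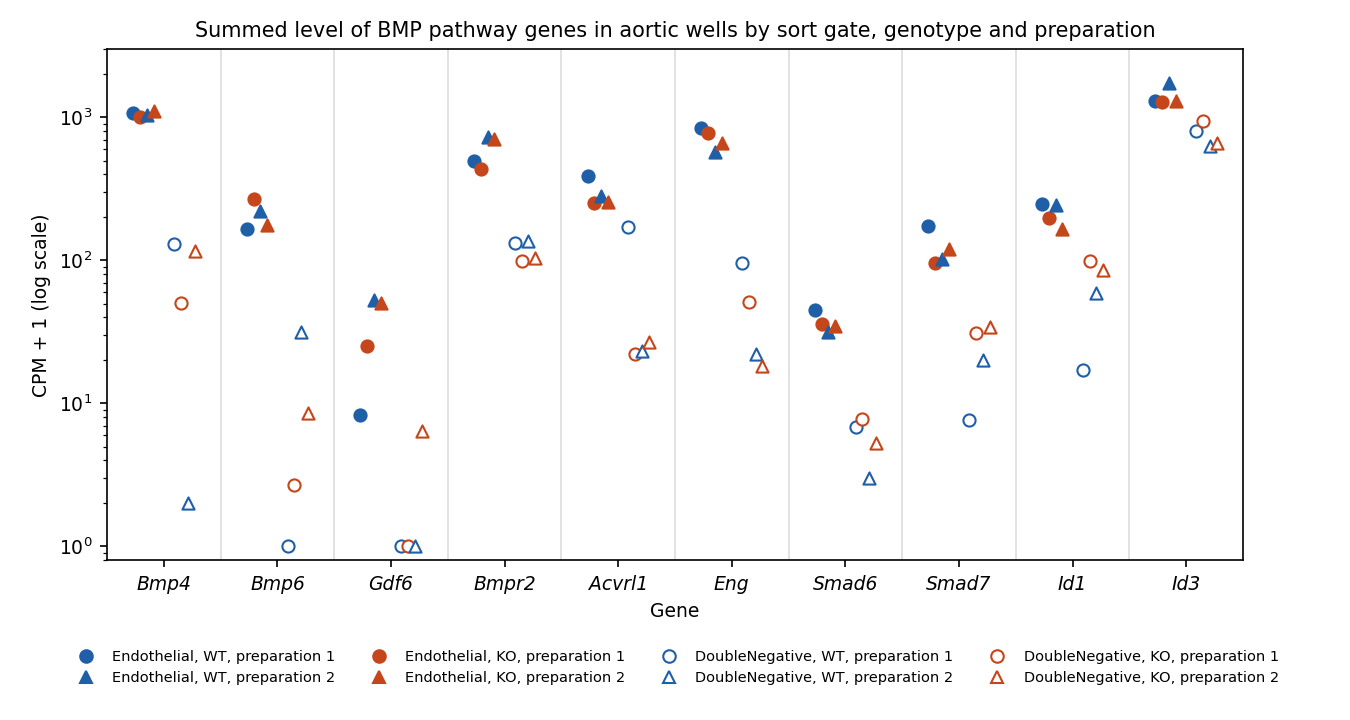
Level of the 10 genes as CPM + 1 on a log scale in 8 sums of wells, by sort gate (filled, Endothelial; open, DoubleNegative), genotype (colour) and preparation (shape). For each gene the 4 Endothelial sums sit above the 4 DoubleNegative sums, and the gap is narrowest for Id3 (1292 to 1749 against 636 to 941 CPM).

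The first comparison set Endothelial against DoubleNegative wells, the latter sorted as a control. For each of the 10 genes the 4 Endothelial sums lay above the 4 DoubleNegative sums, where 17.4% of 11579 genes tested did so and 9.41% lay below in the same way. Of the 10 genes, 9 were called higher in Endothelial wells at an adjusted p under 0.05 (edgeR quasi-likelihood test, two-sided, 4 sums against 4), and Id3 was not. Genotype was in the model, and the gates were not paired within genotype and preparation. Among the called genes Gdf6 had 0 counts in 3 DoubleNegative sums, and 8 of the other 9 genes were called. Bmp4 and Bmp6 also needed their Endothelial sums to pass the filter on low counts. Of all genes tested, 9.34% were called higher and 8.86% lower in Endothelial wells, 18.2% in either direction. The median log2 difference over all genes was 0.10. A higher share of expressing cells and more RNA per cell cannot be told apart in sums, so shares of wells are given beside them.

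Bmp4, the ligand with the highest level, stood at 1069 (WT) and 1003 (KO) CPM in preparation 1 and at 1047 (WT) and 1107 (KO) CPM in preparation 2 of the Endothelial wells. In DoubleNegative wells it stood at 129, 49.4, 1.01 and 116 CPM in the same order, and 99.1% of the counts behind the last value came from 1 well. The groups did not overlap, and the Endothelial values lay close together while the DoubleNegative values were spread more widely. The log2 difference was 3.69 (SE 0.86, edgeR adjusted p = 0.0145). A Bmp4 count was found in 594 of 676 Endothelial wells (87.9%, exact 95% interval 85.2 to 90.2) and in 27 of 108 DoubleNegative wells (exact interval 17.2 to 34.3%).

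Bmp6, a ligand best known from the liver endothelium as an inducer of the iron hormone hepcidin, stood at 165 and 266 CPM in WT and KO of preparation 1 and at 221 and 177 CPM in preparation 2. The DoubleNegative sums held 0, 1.70, 30.4 and 7.56 CPM. The log2 difference was 4.71 (SE 1.19, edgeR adjusted p = 0.0206). Endothelial wells with a count made up 77.7% (525 of 676), against 3 of 108 DoubleNegative wells (2.78%). Of the Bmp6 counts in DoubleNegative wells 56.6% came from 1 well. A count of Cdh5, the endothelial cadherin, was found in 2.78% of DoubleNegative wells, but not in the same groups. The Cdh5 wells were 1 each in WT and KO of preparation 1 and WT of preparation 2. The Bmp6 wells were 1 each in KO of preparation 1 and WT and KO of preparation 2.

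Gdf6, a ligand known from joint and skull formation, was rare. It stood at 7.33, 24.2, 51.8 and 49.5 CPM in Endothelial WT and KO of preparation 1 and WT and KO of preparation 2, and counts came from 56 of 676 wells (8.28%, exact interval 6.32 to 10.6). The share was lowest in WT of preparation 1 (2.55%, 6 of 235 wells), followed by KO of preparation 1 (7.62%), KO of preparation 2 (16 of 89 wells) and WT of preparation 2 (11 of 50 wells). In WT of preparation 1 a single well held 51.5% of the Gdf6 counts. In the DoubleNegative sums it was at 0 in 3 groups and at 5.40 CPM in the KO group of preparation 2, where the count came from 1 well. Gdf6 passed the filter on low counts through its Endothelial sums alone, so no weight is put on its call (edgeR adjusted p = 0.0284), and the fitted fold, which rests on 5 DoubleNegative counts, is given in the plot of fold changes only. Bmp4 had 1 count in the WT DoubleNegative sum of preparation 2, and Bmp6 had 0 in that of preparation 1. Both needed their Endothelial sums to pass the filter, so the same limit holds for their calls.

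Among the receptors, Bmpr2, the type II receptor, stood at 499, 439, 725 and 708 CPM in the Endothelial sums of WT and KO of preparation 1 and WT and KO of preparation 2. In the DoubleNegative sums the values were 131, 97.7, 137 and 104 CPM in that order. Both genotypes of preparation 2 were higher than both of preparation 1 in Endothelial wells. The log2 difference between the gates was 2.216 (SE 0.27, edgeR adjusted p = 0.000525), with the smallest error of the 9 genes called.

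Acvrl1, which codes for the type I receptor ALK1, stood at 391, 251, 279 and 256 CPM in Endothelial sums. The DoubleNegative sums stood at 172, 21.2, 22.3 and 25.9 CPM, so that the WT group of preparation 1 was the highest in both gates. The log2 difference was 2.44 (SE 0.60, edgeR adjusted p = 0.0181). Eng, the co-receptor endoglin, stood at 842, 773, 577 and 660 CPM against 95.3, 50.0, 21.3 and 17.3 CPM. Its log2 difference was 3.83 (SE 0.52, edgeR adjusted p = 0.000833), and 97.2% of Endothelial and 47.2% of DoubleNegative wells held a count. A Bmpr2 count was found in 94.1% and 73.1%, and an Acvrl1 count in 88.3% and 44.4%.

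Of the inhibitory SMADs, Smad6 was low, at 44.2, 34.7, 30.4 and 33.8 CPM in Endothelial sums and at 5.88, 6.78, 2.02 and 4.32 CPM in DoubleNegative sums. The log2 difference was 2.69 (SE 0.49, edgeR adjusted p = 0.00408). Smad7, which blocks both BMP and TGFβ receptors, stood at 174, 94.3, 102 and 118 CPM against 6.63, 30.3, 19.2 and 33.5 CPM. Its log2 difference was 2.46 (SE 0.50, edgeR adjusted p = 0.00762).

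The Id genes code for helix-loop-helix proteins that bind other transcription factors without binding DNA. Id1 stood at 248, 198, 244 and 165 CPM in Endothelial sums and at 16.1, 98.7, 58.7 and 84.2 CPM in DoubleNegative sums, with a log2 difference of 1.72 (SE 0.49, edgeR adjusted p = 0.0352). With the gates paired within each genotype and preparation (the replicate block), the adjusted p for Id1 was 0.0556 and that for the other 8 called genes stayed under 0.05. Id3 stood at 1299, 1292, 1749 and 1301 CPM against 807, 941, 636 and 664 CPM. Its log2 difference of 0.74 (SE 0.24) missed the threshold (edgeR adjusted p = 0.0558), and a count was found in 98.8% of Endothelial and 98.1% of DoubleNegative wells.

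Bmpr2, Eng, Smad6 and Smad7 stayed past the threshold in all 12 alternatives of the gate comparison. Without the KO groups of preparation 1, Bmp4, Bmp6, Gdf6, Acvrl1 and Id1 missed the threshold (edgeR adjusted p from 0.0561 to 0.122), and without the KO groups of preparation 2 Bmp4, Bmp6, Acvrl1 and Id1 did (0.0672 to 0.113). Without the WT groups of preparation 1, Gdf6 missed it (0.0711), and without those of preparation 2 Gdf6 (0.0904) and Id1 (0.113) did. Id3 passed the threshold with DESeq2 (adjusted p = 0.0216), without a filter on low counts (edgeR adjusted p = 0.0402), in thinned wells (0.0231) and in wells chosen by a Cdh5 count (0.0498). In the wells chosen by a Cdh5 count Id1 missed it (0.0553), and in wells of 100000 or more counts Id1 (0.0620) and Acvrl1 (0.0644) did. Over the 12 alternatives Id1 passed in 6 and Acvrl1 in 9.

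**Figure D2:**
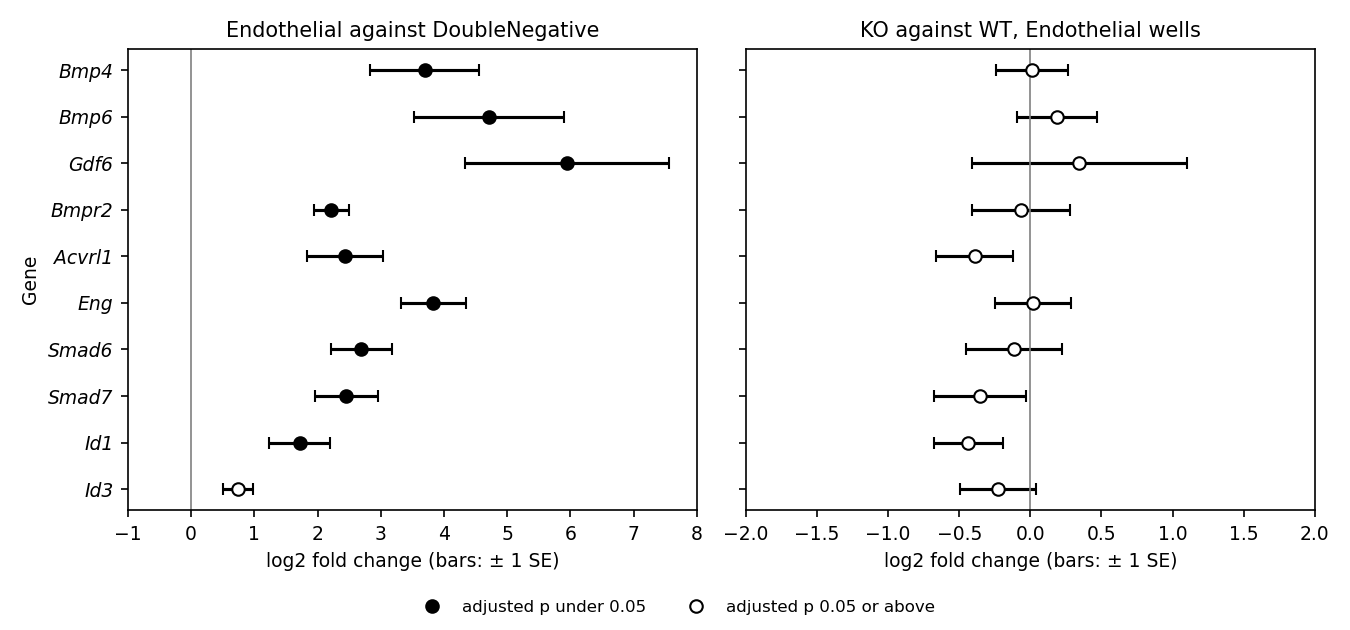
Log2 fold changes of the 10 genes with bars of 1 SE, for Endothelial against DoubleNegative wells (left, 4 sums against 4) and for KO against WT within Endothelial wells (right, 2 sums against 2). Filled points passed an adjusted p of 0.05; on the left 9 of 10 did (all but Id3), and on the right none did, with values from −0.44 to 0.35.

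Levels of different genes were compared per kilobase of the union of annotated exons. In Endothelial sums Id3 was highest, at 788 ± 126 CPM per kb (SD, n = 4), followed by Bmp4 at 470 ± 19.4, and their ranges did not overlap. Id1 (184 ± 34.04) and Eng (176 ± 29.1) came next and did not differ beyond their spread. Acvrl1 (69.0 ± 15.4) and Bmp6 (53.1 ± 11.8) overlapped, as did Bmpr2 (33.0 ± 8.09) and Smad7 (27.0 ± 7.95), and Smad6 (11.2 ± 1.84) and Gdf6 (9.40 ± 6.03 CPM per kb). Bmp4 was thus the ligand with the highest level per length, above Bmp6 in each of the 4 sums. The Bmpr2 value is lowered by its union of 17983 exonic bases, which adds up every annotated end.

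**Figure D3:**
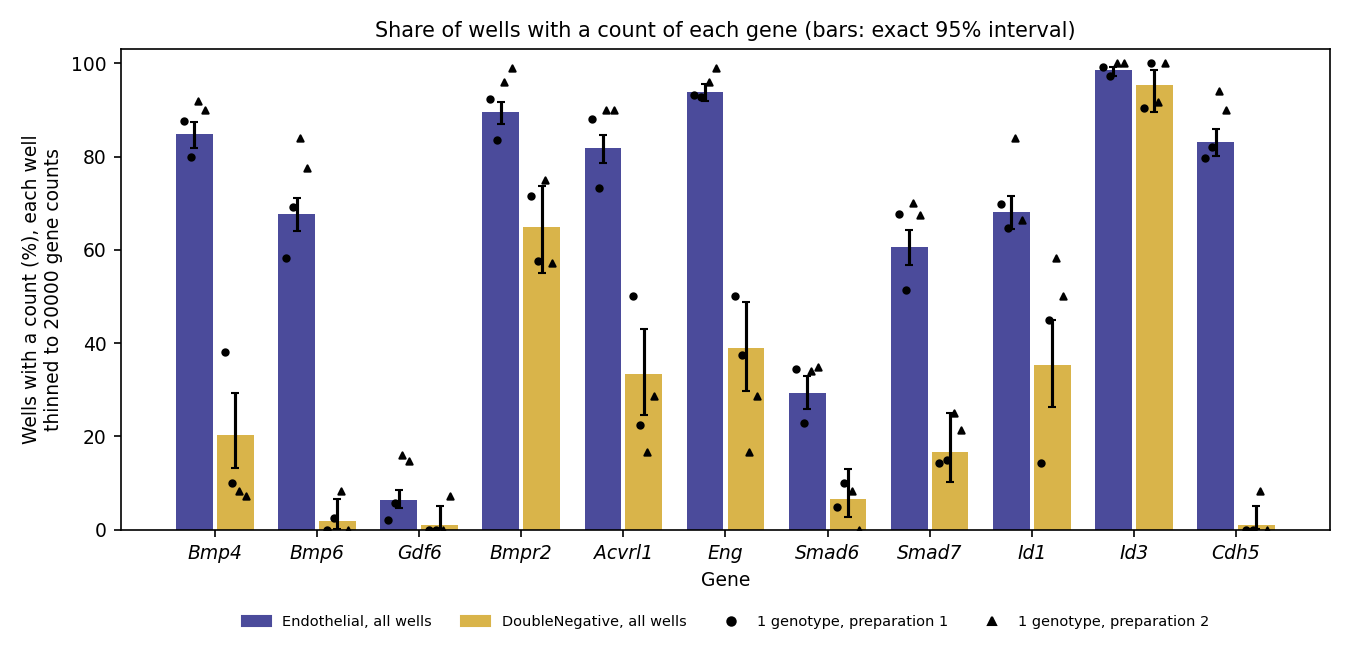
Share of wells (%) with a count of each gene after every well was thinned to 20000 gene counts, in 676 Endothelial and 108 DoubleNegative wells, with exact 95% intervals that cover counting error only; bars give all wells of a gate, and circles and triangles give single genotypes in preparations 1 and 2. Bmp4 reached 84.8% and 20.4%, Bmp6 67.6% and 1.85%, and Id3 98.5% and 95.4%, beside 83.1% and 0.926% for Cdh5.

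At equal depth each of the 10 genes was still found in a larger share of Endothelial than of DoubleNegative wells, though for Id3 and Gdf6 the intervals overlapped. After each well was thinned to 20000 counts, a Bmp4 count remained in 84.8% of Endothelial wells, Bmp6 in 67.6%, Gdf6 in 6.36%, Smad6 in 29.3%, Smad7 in 60.5% and Id1 in 68.0%. Depth differed between groups, with medians of 58190 to 252839 counts per Endothelial well and 46891 to 218324 per DoubleNegative well, and no molecular identifiers were used, so that counts are reads. The level varied widely among wells: the median Endothelial well stood at 640 CPM of Bmp4, with quartiles at 179 and 1484 and a maximum of 5011 CPM. The tenth of wells with the most Bmp4 counts held 50.1% of them.

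The DoubleNegative wells were a mix of 2 kinds, and the BMP genes were divided between them. Clustering without the 10 genes and the wider pathway list gave 7 clusters. Cluster 4 (84 wells, led by Myh11 and Cnn1) held the highest level of 8 of 8 smooth muscle markers and was called smooth muscle-like, and cluster 5 (39 wells, led by Dpep1, Fmod and Dpt) held that of 8 of 8 fibroblast markers and was called fibroblast-like. Of the 108 DoubleNegative wells, 70 were smooth muscle-like, 37 fibroblast-like and 1 lay in cluster 1. In the 37 fibroblast-like DoubleNegative wells Bmp4 stood at 219 CPM and 64.9% of wells held a count. In the 70 smooth muscle-like ones it stood at 0.175 CPM, with 2 counts in all, each in a well of its own. Acvrl1 (164 against 28.0 CPM) and Eng (120 against 31.5 CPM) were likewise higher in the fibroblast-like wells. Id1 stood at 19.1 CPM in fibroblast-like and 91.7 CPM in smooth muscle-like wells, and Smad7 at 7.23 and 29.0 CPM. Of the 37 fibroblast-like wells 26 were WT wells of preparation 1, and in that group Id1 stood at 16.6 CPM in fibroblast-like and 15.3 CPM in smooth muscle-like wells. In KO of preparation 1 the values were 21.99 and 122 CPM. These are descriptions of clusters, with no test.

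**Figure D4:**
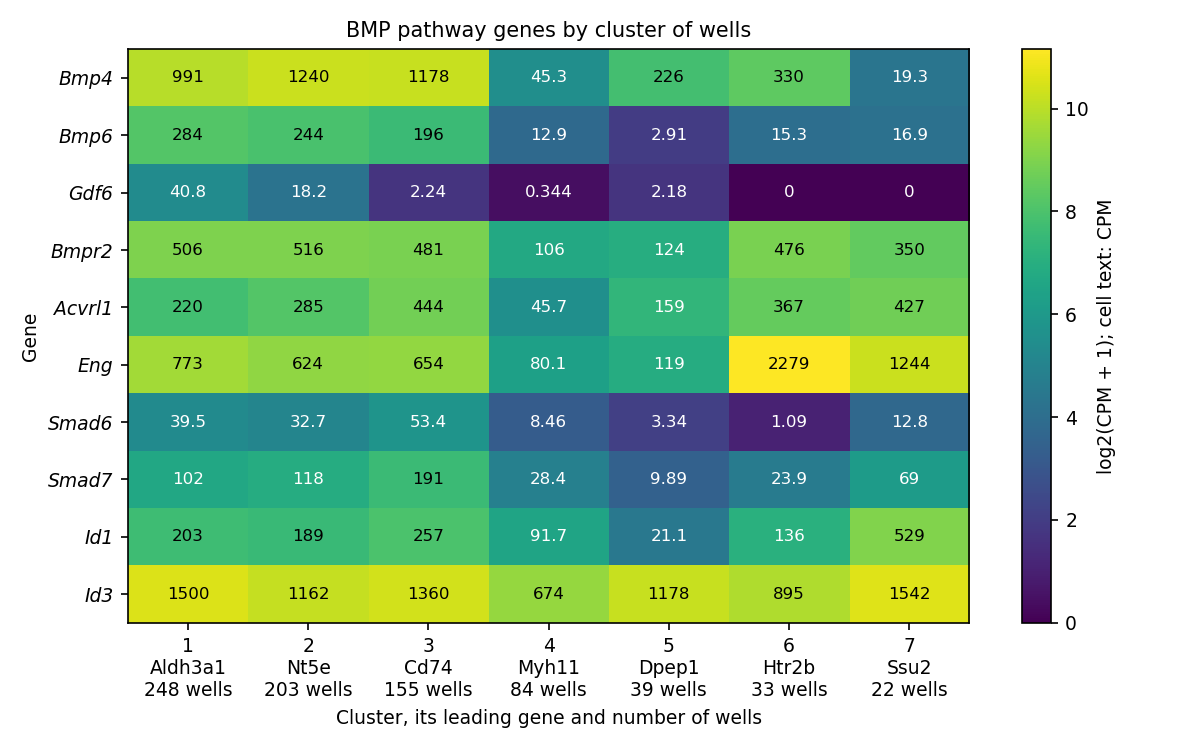
CPM of the 10 genes in 7 clusters of the 784 wells, as text, with colour for log2(CPM + 1); each column gives the cluster, its leading gene and its number of wells. Bmp4 ranged from 19.3 CPM in cluster 7 to 1240 CPM in cluster 2, Gdf6 had no count in clusters 6 and 7, and Eng was highest in cluster 6 (2279 CPM).

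The Endothelial wells fell mainly into 5 clusters, 1, 2, 3, 6 and 7, named here by their leading genes, and 14 Endothelial wells were smooth muscle-like and 2 fibroblast-like. Bmp4 stood at 991 CPM in cluster 1 (248 wells, led by Aldh3a1, Wnk4 and Frzb), 1240 CPM in cluster 2 (203 wells, Nt5e and Gkn3) and 1178 CPM in cluster 3 (155 wells, Cd74 and H2-Eb1). Of the 155 wells of cluster 3, 154 were WT wells of preparation 1, so that this cluster and that plate cannot be told apart. Cluster 6 (33 wells, led by Htr2b, Lrg1 and Nrp2) held 330 CPM of Bmp4 and 15.3 CPM of Bmp6, but 2279 CPM of Eng. Cluster 7 (22 wells, led by Ssu2, Hapln1 and Tmem178) held 19.3 CPM of Bmp4, 16.9 CPM of Bmp6 and no Gdf6 count, with 529 CPM of Id1 and an Id1 count in each of its wells. Cdh5 counts were found in 97.0% of cluster 6 and 81.8% of cluster 7 wells, and the 4 pericyte markers summed to 280 and 269 CPM there, against 0 to 1.24 CPM in clusters 1, 2 and 3. The 8 leukocyte markers summed to 223 CPM in cluster 7, with 2 of them detected, and to at most 6.58 CPM in each other cluster. The part of these markers in the values was not tested. Bmpr2 stood at 476 and 350 CPM and Acvrl1 at 367 and 427 CPM. Cluster 6 held 19 WT and 11 KO wells of preparation 1, and 0 WT and 3 KO wells of preparation 2. Its levels differed between these groups, with Bmpr2 at 781 (WT, preparation 1), 137 (KO, preparation 1) and 206 CPM (KO, preparation 2), and Bmp4 at 515, 125 and 146 CPM in the same order. The only WT wells were on the plate of preparation 1 that held no KO wells, so genotype and plate cannot be told apart in this contrast. Smad6 stood at 1.09 CPM in cluster 6, below the 32.7 to 53.4 CPM of clusters 1, 2 and 3.

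At a resolution of 0.8 in place of 0.5, part of cluster 1 separated as 58 Endothelial wells led by Thbs1 and Heph. They held 1944 CPM of Bmp4, 363 CPM of Bmp6 and 131 CPM of Gdf6. Every one of these wells had a Bmp4 and a Bmp6 count and 46.6% had a Gdf6 count. The 193 wells led by Nkx2-3 and Isl1, the other large part of the former cluster 1, held 565 CPM of Bmp4 and 2.67 CPM of Gdf6. The 58 wells were 4 WT and 32 KO wells of preparation 1 and 8 WT and 14 KO wells of preparation 2. Gdf6 stood at 345, 100, 207 and 214 CPM and Bmp4 at 3186, 1897, 1783 and 2144 CPM in the same order. The highest values thus rest on 4 wells. Id1 in the same wells stood at 129 CPM.

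The ligands were found together in wells. Of 676 Endothelial wells, 500 (74.0%) held both Bmp4 and Bmp6 counts, 94 held Bmp4 alone, 25 Bmp6 alone and 57 neither. A Bmp6 count was found in 84.2% of wells with Bmp4 and in 30.5% of the 82 wells without it. All 56 Gdf6 wells held Bmp4 and 55 held Bmp6. After thinning, the median Gdf6 well held 42.5 Bmp4 and 6 Bmp6 counts, against 11 and 2 in the 620 wells without Gdf6. The Bmp4 medians of wells with Gdf6 were 41, 34, 42 and 47 in WT and KO of preparation 1 and WT and KO of preparation 2, against 12, 10, 10 and 11 without it, so the same order was seen in each group. Median total counts were 192504 in wells with Gdf6 and 158886 in wells without. By group they were 199900 against 118017 in WT and 486446 against 246394 in KO of preparation 1, and 153337 against 181403 in WT and 67862 against 52062 in KO of preparation 2. Wells with Gdf6 were thus deeper in 3 of the 4 groups.

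Over Endothelial wells thinned to 20000 counts, the Spearman correlation of Bmp4 and Bmp6 averaged 0.51 over the 4 groups (0.43 to 0.61, 50 to 302 wells each). Bmp4 with Gdf6 averaged 0.33 (0.15 to 0.47) and Bmp6 with Gdf6 0.27 (0.14 to 0.46). These 3 and the pair of Id1 and Id3 (0.23, 0.14 to 0.34) were the highest of the 45 pairs of the 10 genes. Wells of a group share library preparation and plate, and these correlations are descriptions without a test. Within clusters 1, 2 and 3, the mean correlation of Bmp4 and Bmp6 was 0.54, 0.44 and 0.60. The correlation of thinned Bmp4 counts with the total counts of a well averaged 0.24 (0.06 to 0.41), and that of Bmp6 0.13.

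**Figure D5:**
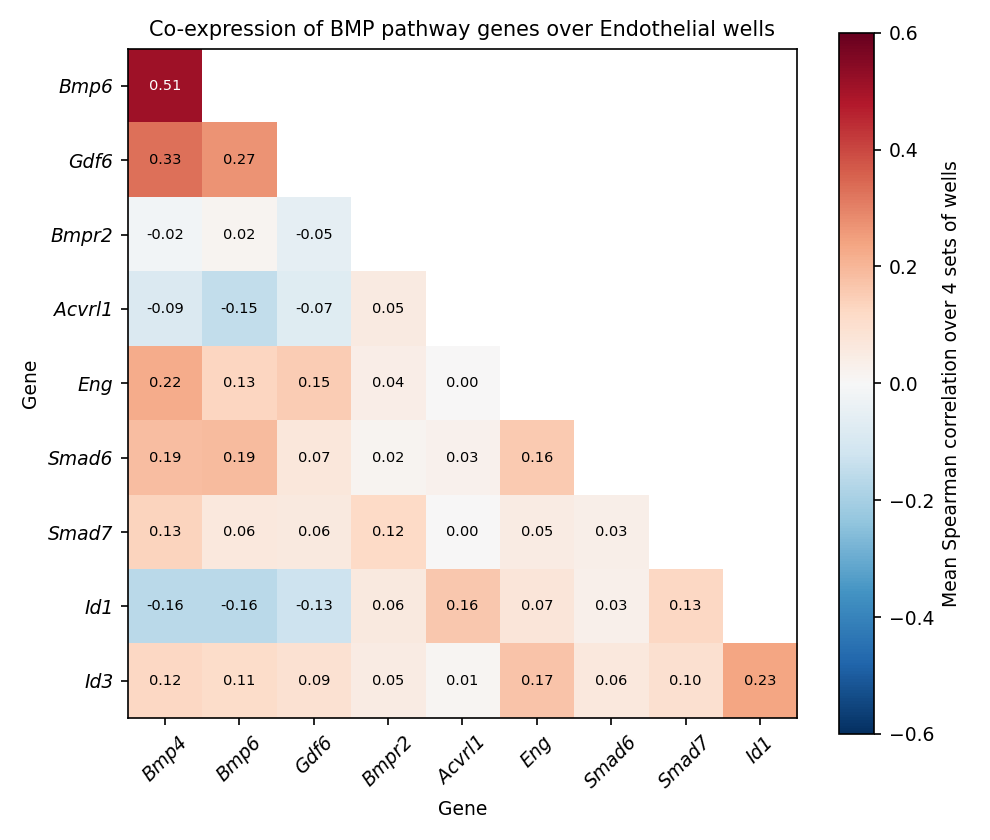
Spearman correlation of counts thinned to 20000 per well for the 45 pairs of genes, as the mean of 4 genotype and preparation groups of Endothelial wells (50 to 302 wells each). The ligand pairs reach 0.51, 0.33 and 0.27, and Id1 lies at −0.16 with both Bmp4 and Bmp6.

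Id1 with Bmp4 averaged −0.16 (−0.23 to −0.10) and Id1 with Bmp6 −0.16 (−0.29 to −0.03), and the value was below 0 in each of the 4 groups for both pairs. With Pearson's correlation of log2(CPM + 1) without thinning, Id1 with Bmp4 averaged −0.05 (−0.13 to 0.05) and Id1 with Bmp6 −0.11 (−0.27 to 0.0014), so the sign did not hold in each group. Id3 with Bmp4 averaged 0.12. Within clusters, Id1 with Bmp4 averaged −0.11, with a range from −0.29 to 0.21. Acvrl1 with Bmp6 averaged −0.15 (−0.28 to −0.08). Between the 3 receptors the averages were at most 0.05.

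Of the 10 genes, 8 met the limit of a count in 25% of the wells of each Endothelial group after thinning, as did 3609 genes in all. Bmp4 was most like Edn1 (mean correlation 0.68), which codes for the vasoconstrictor endothelin 1, then Thbs1 (0.68), the matrix protein thrombospondin 1, and Tm4sf1 (0.64), a membrane protein. The median over all other genes was 0.03. For Bmp6 the nearest genes were Bmp4 (0.51), Thbs1 (0.48) and Tm4sf1 (0.46). Eng was nearest to Edn1 (0.30), Id2 (0.28) and Thbs1 (0.28), so that Edn1 and Thbs1 recurred beside both Bmp4 and Eng.

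The values for the remaining genes were lower. Id3 was nearest to Junb (0.28), Ier2 (0.25) and Sat1 (0.25), the first pair being immediate early genes. Id1 was nearest to Id3 (0.23), Adam15 (0.23) and Klf4 (0.22), the last a transcription factor of laminar flow. Smad7 was nearest to F2r (0.21), Fbln5 (0.20) and Stmn2 (0.19), Acvrl1 to Ly6c1 (0.23), Emp2 (0.23) and Bcam (0.22), and Bmpr2 to Ptprb (0.20), Clec14a (0.17) and Rps28 (0.17).

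The second comparison asked whether loss of Amotl2 in ECs went with other levels of these genes. In Endothelial wells none of the 10 was called, and none of the 12702 genes tested was (0% called; edgeR quasi-likelihood test, 2 KO against 2 WT sums). edgeR gave 468 genes an unadjusted p below 0.05, and DESeq2 called 37, none of them among the 10. The reporter EYFP differed by a log2 of 6.00 (SE 0.64) and also missed the threshold (edgeR adjusted p = 0.0596). With 2 sums per genotype, a gene that was not called is thus not shown to be unchanged. Bmp4 differed by a log2 of 0.01 (SE 0.25), Eng by 0.02 (SE 0.27), Bmpr2 by −0.07 (SE 0.34) and Smad6 by −0.12 (SE 0.34). Bmp6 differed by 0.19 (SE 0.28), Id3 by −0.23 (SE 0.27), Smad7 by −0.35 (SE 0.32) and Acvrl1 by −0.39 (SE 0.27).

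Id1 and Acvrl1 were the 2 genes whose KO sums both lay below both WT sums, as for 14.6% of all genes tested, and none of the 10 had both above, as 14.9% of all genes did. Acvrl1 stood at 251 and 256 against 391 and 279 CPM. Id1 stood at 198 and 165 CPM in KO against 248 and 244 CPM in WT. For Id1 the log2 difference was −0.44 (SE 0.25, unadjusted p = 0.109, edgeR adjusted p = 0.9995), and the value stayed between −0.47 and −0.39 over the 12 alternatives. Gdf6 depended on the WT groups: its log2 difference was 0.35 (SE 0.76), and it was 2.38 without WT of preparation 2 (edgeR adjusted p = 0.000474) and −0.50 without WT of preparation 1 (adjusted p = 0.672). Its level in WT of preparation 1, 7.33 CPM, was the lowest of the 4, and that plate also held 154 of the 155 wells of cluster 3, in which Gdf6 stood at 2.24 CPM. Their part in the Gdf6 value was not tested.

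In DoubleNegative wells, none of the 9 genes that passed the filter on low counts was called, of 10544 genes tested (0% called; 275 at an unadjusted p under 0.05 in edgeR, 5 called by DESeq2). Gdf6 was filtered out. Acvrl1 had the lowest unadjusted p of the 9, 0.0486 (log2 difference −2.07, SE 0.90, edgeR adjusted p = 0.99998). Without WT of preparation 1 it was 0.12, and without WT of preparation 2 it was −2.86 (adjusted p = 0.0191). Bmp4 differed by 0.32 (SE 1.27), and by 6.35 without WT of preparation 1 (adjusted p = 0.00999), where the lone WT sum held 1 count. Fibroblast-like wells made up 61.9% of WT and 22.5% of KO wells in preparation 1 and 8.33% and 7.14% in preparation 2. Acvrl1 also differed inside the smooth muscle-like wells of preparation 1, with a WT level of 97.3 and a KO level of 9.10 CPM. In preparation 2 the Bmp4 level was 1.01 (WT) and 116 (KO) CPM, and each of these groups held 1 fibroblast-like well. That well stood at 0 CPM of Bmp4 in WT and at 944 CPM in KO. Of the KO counts 99.1% came from 1 well.

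The order of the Id1 sums was not the same in the 2 gates. In DoubleNegative wells Id1 stood at 16.1 and 58.7 CPM in WT and at 98.7 and 84.2 CPM in KO (log2 difference 1.35, SE 0.71, unadjusted p = 0.0906, edgeR adjusted p = 0.99998), and both KO sums lay above both WT sums, as for 13.6% of all genes tested, with 15.1% below in the same way. The same order held for Smad7, and the reverse for Bmpr2 (KO sums of 97.7 and 104, WT sums of 131 and 137 CPM). Within the smooth muscle-like DoubleNegative wells Id1 stood at 15.3 and 56.4 CPM in WT and at 122 and 95.8 CPM in KO (log2 difference 1.66, SE 0.72, adjusted p = 0.9997). Smad7 stood at 6.63 and 19.2 CPM in WT and at 30.3 and 33.5 CPM in KO DoubleNegative wells (log2 difference 1.37, SE 0.97, adjusted p = 0.99998). The difference of the KO effect between the gates was tested as an interaction over all 8 sums, and 0 of 12729 genes were called (0%; 657 at an unadjusted p under 0.05, 47 called by DESeq2, none among the 10). It was −1.80 for Id1 (SE 0.77, unadjusted p = 0.0447, edgeR adjusted p = 0.955) and −1.80 for Smad7 (SE 0.80, unadjusted p = 0.0508, adjusted p = 0.955).

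The wider pathway was read from a list of 63 further genes in the table. Of 39 that passed the filter in the gate comparison, 4 were called higher and 10 lower in Endothelial wells, where 9.34% and 8.86% of all genes were, with a median log2 difference of −0.22, beside 0.10 over all genes. The other ligands were nearly silent in Endothelial wells: 6 of 14 had no count there, and the highest, Bmp2, reached a mean of 0.947 CPM. Bmp2 lay lower in all 4 Endothelial than in all 4 DoubleNegative sums (0 to 3.31 against 4.82 to 22.7 CPM, log2 difference −4.06, SE 1.35, edgeR adjusted p = 0.0679). Of the other receptors, Bmpr1a and Bmpr1b, the type I receptors ALK3 and ALK6, were lower in Endothelial wells, by −1.39 (SE 0.35, adjusted p = 0.0215) and −6.60 (SE 1.21, adjusted p = 0.00437). Bmpr1a was still the highest of them there, at a mean of 101 CPM. Bmp2 and Bmpr1b (14 Endothelial counts, all in KO of preparation 1) passed the filter on low counts through their DoubleNegative sums alone. No weight is put on the fits of Bmp2 and Bmpr1b. Of the co-receptors none of 3 tested was called, and Tgfbr3 had the highest Endothelial mean, 68.2 CPM. No signal SMAD was called, and Smad4 had the highest Endothelial mean, 41.9 CPM.

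Of 10 secreted antagonists tested, 5 were called, all lower in Endothelial wells. Twsg1 stood at 25.9 to 31.1 CPM in Endothelial and 212 to 570 CPM in DoubleNegative sums. Its log2 difference was −3.92 (SE 0.39, edgeR adjusted p = 0.000203). Nbl1 stood at 1.32 to 20.6 against 23.3 to 362 CPM (log2 difference −3.83, SE 0.92, adjusted p = 0.0166). Chrdl1, which binds BMPs, differed by −6.13 (SE 1.46, edgeR adjusted p = 0.0160), Fstl3, an activin-binding follistatin relative, by −5.52 (SE 0.77, adjusted p = 0.000963), and Sost, which codes for sclerostin, by −4.06 (SE 0.67, adjusted p = 0.00253). In the WT and KO Endothelial sums of preparation 2, Chrdl1 had 0 counts and Fstl3 had 4 and 3. Chrdl1 and Fstl3 passed the filter on low counts through their DoubleNegative sums alone, so no weight is put on their calls. Mgp, the matrix Gla protein that binds BMPs, was the highest antagonist in Endothelial wells, at 5324 to 7713 CPM, and stood at 2953 to 6371 CPM in DoubleNegative wells (log2 difference 0.42, SE 0.31, adjusted p = 0.431). Of 8 membrane or intracellular regulators, Crim1, a membrane protein that binds BMPs, was higher in Endothelial wells by 2.31 (SE 0.37, adjusted p = 0.00212), and Fkbp1a, whose product FKBP12 holds type I receptors inactive, by 1.09 (SE 0.23, adjusted p = 0.00872).

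Among 9 other targets tested, Gata2 and Hey2 were called higher and 3 lower in Endothelial wells. Gata2, an endothelial and blood transcription factor, stood at 221 to 283 CPM in Endothelial sums and had 1 count in the DoubleNegative sums together. Hey2, an arterial transcription factor of the Notch pathway, stood at 117 to 190 CPM against 15.3 to 39.5 CPM (log2 difference 2.32, SE 0.35, edgeR adjusted p = 0.00165). Id4 was lower in Endothelial wells by −5.42 (SE 1.52, adjusted p = 0.0336), while Id2, at 273 to 553 against 238 to 720 CPM, differed by −0.39 (SE 0.36, adjusted p = 0.555). Id4 had 0 counts in the Endothelial sums of preparation 2. Gata2 passed the filter on low counts through its Endothelial sums alone, and Id4 through its DoubleNegative sums alone. No weight is put on the calls of Gata2 and Id4. No gene of the wider list was called between KO and WT in either gate or in the interaction, with 5 of 40 at an unadjusted p under 0.05 in Endothelial wells.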

How the data were processed

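Aortic cells were processed by Smart-seq2. Per the labels, the authors aligned reads with STAR 2.7.7a to GRCm38 with ERCC and EYFP sequences, removed duplicates with Picard 2.22.0 and counted with HTSeq 0.9.1; the annotation release is not given in the sources used here. The deposited values are raw read counts, with 46.9% in HTSeq summary rows and 1.25% in 92 ERCC rows, both left out here. Counts were summed per gate, genotype and preparation, and the p-values measure the spread between these sums. Sums were compared with edgeR 4.0.16 (TMM, filterByExpr, quasi-likelihood test, Benjamini-Hochberg adjustment over all genes tested) in R 4.3.3, checked on simulated counts. Alternatives were DESeq2 1.42.0, other scaling, filters, depths, left-out groups and a replicate block. Only the replicate block paired the sums in a fit. The labels number sorts 1 and 2, and the series' design names 2 separate preparations; the sort number was read as the preparation, a shared batch, and pairs the sums; deviations of WT and KO of preparation 1 correlated at 0.14 over 12702 genes. Shares carry exact 95% binomial intervals, which cover counting error only. Clusters came from Seurat 5.3.0 (30 dimensions, resolution 0.5), with no doublet caller run. Members and lists were chosen with earlier results of these data known. Named were the 10 genes, the 3 genes most correlated with each, and of the pathway list the called genes and the highest of each role. Gene positions and lengths are from GENCODE M21.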

Additional observations from a re-analysis of the deposited data

Results flagged for a closer look

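Id1 drew attention because its KO and WT sums were ordered in opposite ways in the 2 gates. Both KO sums lay below both WT sums in Endothelial wells and above both in DoubleNegative wells. Each order alone was seen for 14.6% of genes tested in Endothelial and 13.6% in DoubleNegative wells. Because Id1 was picked by this order, the test below on the same sums gives no separate support. By preparation, on the log2(CPM + 1) scale, KO minus WT was −0.32 and −0.56 in Endothelial wells and 2.54 and 0.51 in DoubleNegative wells. The test of the difference itself gave −1.80 (SE 0.77, unadjusted p = 0.0447, edgeR adjusted p = 0.955), which did not pass. In preparation 1 plate and genotype cannot be told apart, and the share of fibroblast-like DoubleNegative wells was 61.9% in WT and 22.5% in KO there. With the DoubleNegative wells limited to smooth muscle-like ones and all Endothelial wells kept, the interaction was −2.13 (edgeR adjusted p = 0.758).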

How the results depend on the processing

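In all, 528 alternative values were computed and 429 were counted as unchanged. Fold changes had to keep their direction and their side of the threshold. Shares and correlations had to move less than the replicate spread, and numbers of called genes and ratios over clusters to stay within a fixed factor. The fits and correlations by cluster were chosen after seeing the data. The replicate block called 8 of the 10 genes between the gates, losing Id1, 1 gene in all for KO in Endothelial wells, and changed no other call of the 10 genes. Leaving out 1 genotype and preparation at a time gave 1242 to 1823 genes and 4 to 8 of the 10 between the gates, against 2108 and 9.

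For KO against WT in Endothelial wells, where 0 genes were called, DESeq2 called 37, no filter on low counts 104, RLE size factors 1, thinned wells 2, wells with a Cdh5 count 1 and KO wells with an EYFP count 1. Leaving out 1 sum gave 5 to 311 genes and 0 to 1 of the 10. The log2 difference of Bmp4 was −0.050 in wells of 100000 or more counts, −0.064 in thinned wells, −0.014 in wells with a Cdh5 count and −0.015 in KO wells with an EYFP count, that of Eng −0.0059 in wells with a Cdh5 count, and those of Gdf6 and Smad6 in thinned wells −0.16 and 0.0045. With 1 sum left out the values ranged from −0.16 to 0.17 for Bmp4, −0.030 to 0.44 for Bmp6, −0.50 to 2.38 for Gdf6, −0.57 to 0.31 for Bmpr2, −0.21 to 0.29 for Eng, −0.34 to 0.15 for Smad6, −0.67 to 0.049 for Smad7 and −0.45 to 0.029 for Id3.

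In DoubleNegative wells, where 0 genes were called, DESeq2 called 5, no filter 24, and leaving out 1 sum 0 to 79 genes and 0 to 1 of the 10. Bmp4 was −0.21 in thinned wells, Bmp6 0.87 with the replicate block, and Eng 0.83 and Id3 −0.19 in smooth muscle-like wells. With 1 sum left out the ranges were −0.63 to 6.35 for Bmp4, −3.07 to 7.69 for Bmp6, −2.86 to 0.12 for Acvrl1, −1.72 to 0.71 for Eng, −0.045 to 0.73 for Smad6 and −0.053 to 0.39 for Id3. For the interaction DESeq2 called 47 genes, no filter 163, and leaving out 1 sum 0 to 21. The causes were not tested. Where 1 sum was left in an arm, it was assumed to vary like the others.

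Thinning lowered the share of Endothelial wells with a count to 67.6% for Bmp6, 89.5% for Bmpr2, 93.9% for Eng, 29.3% for Smad6 and 60.5% for Smad7, and of DoubleNegative wells to 16.7% for Smad7 and 95.4% for Id3, so depth limited these shares. The ratio of the highest to the lowest CPM over clusters of 100 or more wells was 1.25 for Bmp4 and 18.2 for Gdf6, and 2.24 and 7.40 at resolution 0.8.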
